A study of Xenopus laevis with 6 samples.

Results

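T-box genes encode transcription factors that share a DNA-binding domain, the T-box. The family was examined here in double explants of Xenopus laevis gastrula neuroectoderm. Its genes were chosen by name, with the authors' results for stretched against control explants already known. The names searched were tbxt, tbxt.2, tbx6, vegt, eomes, tbx1, tbx2 and tbx3, each with the ending .L or .S, which marks the homeologs (the gene copies on both subgenomes of this allotetraploid frog). Of these 16 names, 14 had a row among the 42549 rows of the table. tbx6.L, which is a symbol of the RefSeq annotation, and tbxt.2.L, which is not, had none and were not analysed here.

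Wild-type embryos were grown to stage 11.5, which ends the range that the study's methods give. Pieces of dorsal ectoderm were then cut, joined in pairs by their inner sides and pinned to agarose. The 3 stretched samples were drawn out for 3 h, and the 3 control samples were pinned without stretching. Both groups share the cutting, the pairing of pieces and the pinning, and both were lysed for RNA after 3 h. Poly(A) RNA of the 6 samples was sequenced. For each gene the table used here gives 1 average level, the log2 of the CPM, a count scaled to 1e+06 counts in a library, over the libraries of both groups together. A difference between stretched and control explants therefore cannot be seen in these values, no spread between replicates can be given, and no test was run.

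In the early frog embryo, T-box factors act at successive steps of germ layer formation. The vegt product begins mesoderm and endoderm formation, eomes acts in the early mesoderm, tbxt (brachyury) keeps mesoderm cells in their posterior and notochord programme with FGF signaling, and tbx6 acts in ventral and paraxial mesoderm. tbx2 and tbx3 are largely repressors with roles in the eye, limb and other organs of vertebrates, and tbx1 is known for its part in the pharyngeal region. The T-box products thus include regulators of tissues other than the neuroectoderm for which the explants are named. The authors state that the explants took in the marginal zone, whose outer cell layers express tbxt at the middle gastrula stage. That is the stage of cutting, and the RNA was taken 3 h later.

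The T-box rows ranged from transcripts with many reads to ones that were almost absent. The brachyury pair tbxt and the maternal and mesodermal gene vegt held most of the reads, tbx2 and tbx3 came next, and eomes, tbxt.2, tbx6 and tbx1 held few. At or above an average log2 CPM of 0, which is 1 CPM, stood 12 of the 14 rows (85.7%), against 44.4% of all rows of the table. The median average log2 CPM was 4.12 over the T-box rows and -0.86 over all rows. These values describe genes that were not drawn at random, and nothing particular to the family is read from them.

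The number of reads behind each value could be estimated. The lowest average log2 CPM, -2.08, was shared by 12476 rows, and the linear values of the rows just above it rose by equal steps of 1/12 of that lowest value, as single reads added to a constant would. Over the 9458 rows with estimates of 1 to 20 reads, 99.96% were whole to within 0.05 of a read. Summed over the table, the estimates come to 50.8 M reads in 6 libraries, a mean of 8.47 M for each. This estimates the reads counted in the rows and not the sequencing depth, which the study's methods put higher for every sample. A row at the lowest value then has 0 reads, which allows up to 3 reads or 0.0590 CPM as a 1-sided limit. For abundant genes the estimate is an average rate turned into reads, not an exact count. The number of counted reads in each single library is unknown. The 95% exact Poisson intervals below treat the estimates as counts. They cover counting error only, not the spread between explants or the error of turning a rate into reads.

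Over the libraries of both groups together, brachyury had the most reads of these T-box genes. Its rank and share in either group alone cannot be given. The average log2 CPM of tbxt.S was 6.79 (110.8 CPM), and its estimate was 5605 reads with an interval of 5459 to 5754. That of tbxt.L was 5.84 (57.2 CPM), with 2885 reads and an interval of 2781 to 2992. These rows stood above 95.7% and 91.4% of all rows in average log2 CPM. Together they held 40.0% of the CPM of the 14 T-box rows (exact binomial interval 39.4% to 40.7%, counting error only), with the prior count taken off.

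tbxt.2.S, a second brachyury-type gene also known as Xbra3, had far fewer reads. Its average log2 CPM was 1.05 (2.08 CPM), and it had an estimated 93 reads (75.1 to 113.9). In the RefSeq annotation of the assembly Xenopus_laevis_v10.1, tbxt.2.S is the protein-coding gene next to tbxt.L on the same chromosome, although its name ends in .S. The gene at the like place beside tbxt.S, between it and pde10a.S, bears no symbol there and was not analysed here. The tbxt and tbxt.2 products are related, and how reads fitting more than 1 of these genes were counted is not given in the sources used here, so the split among tbxt.L, tbxt.S and tbxt.2.S is uncertain.

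vegt, whose maternal transcript lies in the vegetal cytoplasm of the egg and which is expressed again in the mesoderm of the gastrula, was the gene with the next most reads. The average log2 CPM was 6.15 (70.9 CPM) for vegt.S and 5.71 (52.3 CPM) for vegt.L, with estimates of 3581 and 2640 reads. Both homeologs together held 29.3% of the CPM of the T-box rows. With 1 row for each homeolog, maternal and zygotic transcripts are not told apart in the table. tbxt and vegt together accounted for 69.4% of the CPM of the T-box rows.

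eomes, short for Eomesodermin, stood lower. eomes.L had an average log2 CPM of 2.83 (7.11 CPM) with an estimated 348 reads (312.4 to 386.6), and eomes.S one of 1.69 (3.23 CPM) with 152 reads (128.8 to 178.2). tbx6.S, the only homeolog of tbx6 analysed here, had an average log2 CPM of 0.99 (1.98 CPM) with 89 reads (71.5 to 109.5). The 4 genes tbxt.2, tbx6, eomes and tbx1 together held 3.29% of the CPM of the T-box rows.

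tbx2 and tbx3 were both well detected, and they held 27.3% of the CPM of the T-box rows. For tbx2.L the average log2 CPM was 5.80 (55.6 CPM) with an estimated 2804 reads, and for tbx2.S it was 4.53 (23.2 CPM) with 1162. For tbx3.S it was 4.56 (23.6 CPM) with 1185 reads, and for tbx3.L 3.70 (13.0 CPM) with 648. The neighbours of these genes in the genome are T-box genes as well, tbx4 beside tbx2 and tbx5 beside tbx3, and these are known for limb and heart development. They were at or next to the lowest value of the table, with 0 reads for tbx4.L, tbx5.L and tbx5.S and 1 read for tbx4.S.

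tbx1 was close to the limit of detection. tbx1.S had an average log2 CPM of -1.20 with an estimated 10 reads over the 6 libraries (4.80 to 18.4), and tbx1.L one of -1.58 with 5 reads (1.62 to 11.7). The averages of such rows are largely the constant of the authors' processing. After it is taken off, tbx1.S stands at 0.197 CPM and tbx1.L at 0.0986 CPM.

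In the order of estimated reads, tbxt.S came first, followed by vegt.S, tbxt.L, tbx2.L, vegt.L, tbx3.S, tbx2.S, tbx3.L, eomes.L, eomes.S, tbxt.2.S, tbx6.S, tbx1.S and tbx1.L. The counting intervals of 5 neighbours in this order overlap, namely tbxt.L with tbx2.L, tbx2.L with vegt.L, tbx3.S with tbx2.S, tbxt.2.S with tbx6.S, and tbx1.S with tbx1.L. Since transcript lengths were not used and longer transcripts give more reads, this is an order of reads and not of transcript molecules.

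**Figure D1:**
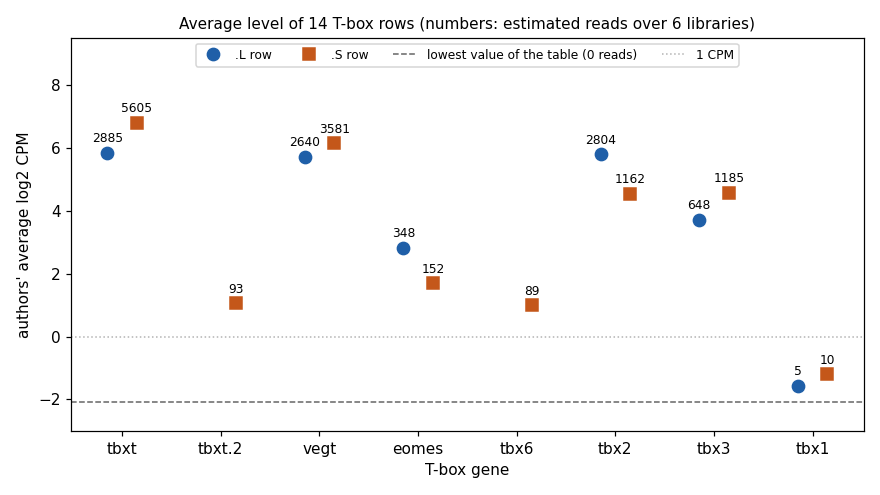
Average log2 CPM (vertical axis) of the 14 T-box rows by gene (horizontal axis), with circles for .L and squares for .S rows and the estimated reads over 6 libraries beside each point. tbxt.S is highest with 5605 reads, both tbx1 rows lie below the dotted line of 1 CPM, and the dashed line marks the lowest value of the table; no error bars are drawn because the table gives 1 value per gene.

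Both homeologs of 6 of the genes had a row with reads, so their levels could be set side by side. The .S copy was higher for tbxt, vegt, tbx3 and tbx1, and the .L copy was higher for eomes and tbx2. From the estimated reads, tbxt.S was 1.94-fold above tbxt.L (exact binomial interval 1.86 to 2.03), tbx3.S 1.83-fold above tbx3.L (1.66 to 2.02) and vegt.S 1.36-fold above vegt.L (1.29 to 1.43). In the other direction, tbx2.L was 2.41-fold above tbx2.S (2.25 to 2.59) and eomes.L 2.29-fold above eomes.S (1.89 to 2.79). For tbx1 the difference, .L minus .S, was -1.0 on the log2 scale of reads with an interval from -2.90 to 0.68, so a difference was not detectable at this depth. In the 5 other pairs the difference exceeds counting error, whereas the spread between explants and any difference in transcript length between the copies are unknown. How reads fitting both copies of a gene were counted is not given in the sources used here, and the intervals do not cover it.

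The T-box homeologs differed by amounts that are common in the table. Among 6666 pairs with both copies above the lowest value, the median absolute difference in average log2 CPM was 1.06, with 0.44 and 2.1 at the quartiles, and the .L copy was higher in 56.3% of pairs. The L minus S difference in average log2 CPM was -0.96 for tbxt, -0.44 for vegt, 1.14 for eomes, -0.37 for tbx1, 1.26 for tbx2 and -0.86 for tbx3. The median of the absolute values was 0.91, and 4 of the 6 pairs lay below the median of all pairs. The widest of the 6 differences, that of tbx2, exceeded 56.3% of all pairs.

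**Figure D2:**
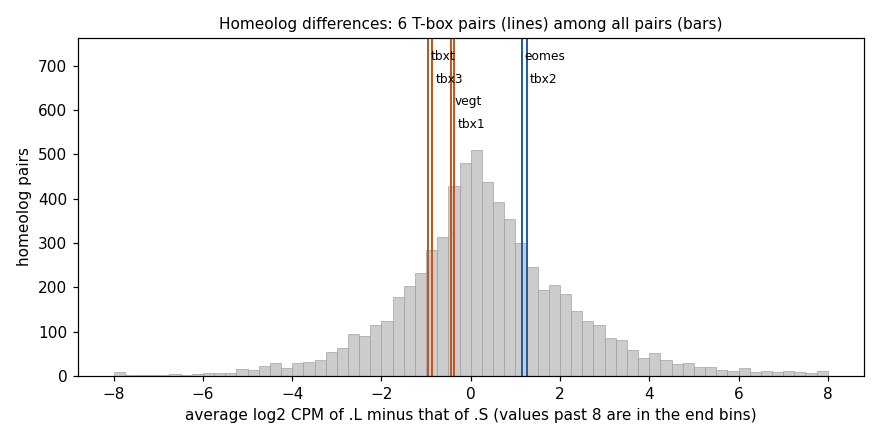
Number of homeolog pairs (vertical axis) by the average log2 CPM of the .L copy minus that of the .S copy (horizontal axis) for the 6666 pairs with both copies above the lowest value. The lines mark the 6 T-box pairs, which lie between -0.96 for tbxt and 1.26 for tbx2, within the bulk of the pairs.

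Further T-box genes, searched by a chosen list of names, were mostly at or near the lowest value. They had 15 rows, of tbx4, tbx5, tbx15, tbx18, tbx20, tbx21, tbx22, tbr1 and mga. Of these, 3 reached 1 CPM (20%, against 44.4% of all rows of the table). Of the 15 rows, 4 had 0 reads, as did 12476 of all 42549 rows. Their median average log2 CPM was -1.76. The highest was mga.L, which encodes a large T-box protein that pairs with the widely expressed factor Max, with an average log2 CPM of 5.08 (estimated 1698 reads). tbx22.S followed at 1.07 with 94 reads. The list left out tbx6r.L, the gene next to tbx6.L in the annotation, which had an average log2 CPM of 0.65 with 67 reads. tbx10 and tbx19 were not analysed here.

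Genes that act with the T-box factors in mesoderm formation spanned a wide range of average levels. Of 44 rows of upstream ligands and receptors, 26 reached 1 CPM (59.1%, against 44.4% of all rows of the table). Their median average log2 CPM was 1.55. The highest were the FGF receptor fgfr4.S (7.64) and the Nodal co-receptor tdgf1.3.L (7.39). Of the 44 rows, 5 had 0 reads, among them nodal5.L and nodal6.L, against 12476 of all 42549 rows. fgf4, an FGF ligand in a loop with brachyury in Xenopus, had average log2 CPM values of -0.66 (fgf4.L, 20 reads) and -1.42 (fgf4.S, 7 reads). Of 27 rows of effectors and repressors, 25 reached 1 CPM (92.6%, against 44.4% of all rows). They ranged from ctnnb1.L, which encodes beta-catenin, and ctnnb1.S at 10.71 and 10.60 down to ripply3.S at -1.34. Ripply proteins turn T-box activators into repressors.

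Among genes known as targets or partners of T-box factors, 24 of 37 rows reached 1 CPM (64.9%, against 44.4% of all rows). Their median average log2 CPM was 1.21. The caudal-type genes cdx2.L (7.17) and cdx4.L (6.53), which act in posterior patterning, were highest, and tcf15.S, which encodes a paraxial mesoderm factor, was lowest at -1.86 with 2 reads. Some rows are counted in more than 1 list, so the list summaries are not independent. Of the targets, fgf4 and wnt11b.L are also among the upstream ligands. The msgn1, myf5, mespa, mespb and tcf15 rows are also paraxial markers below, gsc an organizer marker and mixer an endoderm marker. wnt8a is both an upstream ligand and a ventrolateral marker.

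Each tissue searched had marker rows with reads, some with few, and the median level was lowest for paraxial mesoderm and next lowest for endoderm. Over all rows of the table, 44.4% reached 1 CPM. The share of paraxial mesoderm and myogenic rows was near that (42.9%), and those of the other marker lists were above it. The marker genes were not drawn at random. All 17 rows of neural plate markers reached 1 CPM, with a median average log2 CPM of 5.84 and sox3.S and sox3.L highest at 8.07 and 7.60 and ncam1.S lowest at 1.39. Non-neural ectoderm and epidermis markers had a median of 8.03 over 21 rows, 19 of which reached 1 CPM, from the keratin genes krt70.S and krt12.5.S at 11.48 and 9.89 down to tp63.L at -1.41. For organizer and axial mesoderm the median was 2.08 over 15 rows (13 at or above 1 CPM), with foxa4.L and admp.L highest at 6.12 and 5.52 and nog.S lowest at -0.81. For paraxial mesoderm and myogenic genes it was -0.08 over 14 rows (6 at or above 1 CPM), from msgn1.L and myf5.L at 1.21 and 1.05 down to tcf15.S at -1.86. Ventrolateral mesoderm markers, several of which are also expressed in ventral ectoderm, had a median of 7.0 over 17 rows. Of these, 16 reached 1 CPM, with gata2.L and gata2.S highest at 9.40 and 9.28 and hand1.L lowest at -1.76. The gata2, szl, bmp4 and ventx rows all stood at 4.83 or higher, while wnt8a.L (2.64) and wnt8a.S (1.25) stood well below the median. Endoderm markers had a median of 0.55 over 15 rows (11 at or above 1 CPM), from a2m.S and foxa1.S at 6.78 and 1.96 down to mixer.S at -0.96. No marker row was at the lowest value, but 30073 of all 42549 rows also stood above it. Some marker rows were close to it, such as tcf15.S with 2 reads and hand1.L with 3. Marker names without a row are not covered by these counts. A row was found for 8 of 10 organizer names, 7 of 8 paraxial names and 8 of 10 endoderm names. noto (organizer) and myod1 (paraxial) were among the names not analysed here. In such bulk samples few cells with much RNA of a gene and many cells with little of it cannot be told apart, and the part of each tissue in the T-box levels was not tested.

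**Figure D3:**
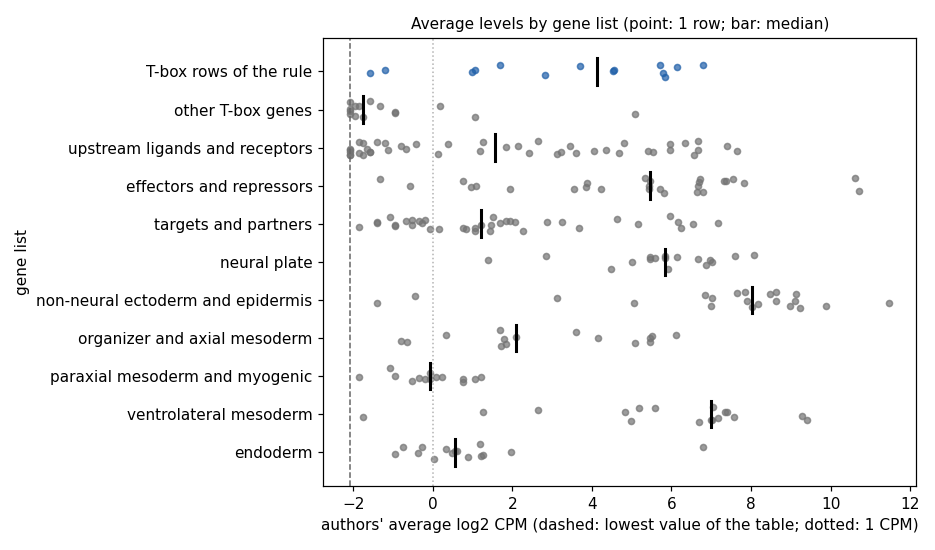
Average log2 CPM (horizontal axis) of each row, by gene list (vertical axis), with a bar at the median of each list, a dashed line at the lowest value of the table and a dotted line at 1 CPM. The T-box rows of the rule have a median of 4.12. The nearest list medians are those of organizer and axial mesoderm (2.08) below and of effectors and repressors (5.46) above.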

How the data were processed

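Poly(A) RNA of 3 control and 3 stretched samples was sequenced on an Illumina instrument. The authors mapped reads with STAR and calculated fold changes with DESeq2, per the study's methods. The processing notes of the submitters list other tools as well (TopHat2, HTSeq, DESeq, edgeR), and the deposited header names a quasi-likelihood F-test. What build and annotation were used is not given in the sources used here. In all, the authors' deposited table holds 1 average log2 CPM per gene, which includes a prior count, and 4 columns of the authors' own comparison (a fold change, an F, a p-value and an FDR). These 4 columns were not used, nor was their row order. No values per sample were used, and no test between groups was run.

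Reads were estimated as 12 times the linear value over the lowest linear value, less 12, where 12 is taken as 6 libraries times a prior count of 2. The step was checked on the low rows. The formula was also run on counts simulated with 6 libraries and a prior count of 2. Since 12 was built into that simulation, it cannot show that 12 holds for the authors' values. With 6, 8, 9, 10, 14, 16 or 18 in place of 12, at most 39.7% of 8315 low rows came out whole (within 0.05 of a read), against 100% with 12. Intervals are at 95% with a lower and an upper limit, whereas the limit for rows with 0 reads is 1-sided. Symbols of 93.9% of rows, and of all 14 T-box rows, matched RefSeq (Xenopus_laevis_v10.1), used for names and gene order only. Sequences were not used here, and 1 planned endoderm marker gene is not reported. List names without a row were skipped. The members and lists were chosen with earlier results of these data known. All rows of the rule are named, and of each list the 2 highest rows and the lowest (where several rows share the lowest value, some of them), while further genes of the lists were picked with their values in view. The alternatives tried concern the threshold of 1 CPM, the prior count and the background rows. Python 3.11.15, numpy 2.4.6, pandas 2.3.3 and scipy 1.17.1 were used.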

Additional observations from a re-analysis of the deposited data

How the results depend on the processing

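The count of T-box rows at or above the threshold was 12 with an average log2 CPM of 0 or -1 and 11 with 1, where tbx6.S fell below. The share of tbxt in the CPM of the T-box rows was 39.8% with the prior count kept and 40.0% with it taken off. The sign of all 6 homeolog differences was the same with the prior count kept or taken off, and the difference of tbx1 went from -0.37 to -1.0, within its counting interval. The median percentile of the 14 rows was 80.4 among all rows and 72.3 among rows above the lowest value. Against pairs with both copies at or above 1 CPM, a background chosen after seeing the data that leaves out tbx1, 3 of 5 T-box pairs lay below the median absolute difference, against 4 of 6 among all pairs. Levels per coding length were planned but not run, nor were the comparisons of proteins and promoters, since no sequences were used here. No paired analysis was possible because no values per sample were used. The depth limits tbx1, with 15 estimated reads over both homeologs.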

Other observations

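The step of 1/12 in the lowest values matches 6 libraries with a prior count of 2 each, although other products that give 12 cannot be told apart from it. tbxt.2.S bears the ending of the S subgenome and lies next to tbxt.L in the annotation, and its estimated reads (93) are few beside those of tbxt.L (2885).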
